A study of Rattus norvegicus with 20 samples.

Results

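Transcripts of 10 skeletal muscle genes were followed on 20 liver arrays. The genes were Acta1, Tnnt3, Tnni2, Actn3, Myl11, Myh3, Myh8, Myh4, Ckm and Myog, taken by name, and they were represented by all of their 11 probe sets that carry a single gene symbol, out of 31042 non-control probe sets standing for 14217 genes. Tnnt3 had 2 such probe sets and each other gene had 1. The arrays come from a study of PBDE-47, a brominated flame retardant, in Wistar Han (Crl:WI (Han)) rats. Timed-mated females, obtained at 11 to 12 weeks of age, were dosed daily by oral gavage with corn oil alone (vehicle) or with PBDE-47 in corn oil at 0.1, 15 or 50 mg/kg. Dosing began on gestation day 6 and ended on postnatal day 4. RNA came from the left lateral lobe of the liver at postnatal day 4, the sex tag reads female on all arrays, and each of the 4 groups has 5 arrays. The labels name neither litters nor separate animals, and they leave unstated whether pup or dam liver was taken, so p-values measure only the spread between these samples, which may be technical.

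Skeletal muscle fibres contract through sarcomeres, in which myosin thick filaments slide along actin thin filaments under the control of the troponin complex. Muscle replaces its myosin heavy chains as it matures: Myh3 encodes the embryonic chain, Myh8 the perinatal chain and Myh4 the chain of adult fast glycolytic fibres. Liver has no skeletal muscle fibres of its own, and hepatocytes do not use these genes for contraction. Myog encodes myogenin, a transcription factor that drives the differentiation of myoblasts and binds E-box sequences.

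The values are log2 microarray signals after robust multi-array averaging (RMA), and the number of arrays limits their precision. Array medians lay between 5.605 and 5.648, and the 5th and 25th percentiles of all values were 2.95 and 4.0, so that values of about 2 to 4 hold mostly background. Levels of different probe sets are not comparable, and the text compares the same probe set between arrays. The 7 measured hepatocyte markers averaged 14.16 to 14.28 on every array, near the highest values of the table. In these bulk samples a larger number of muscle cells and more muscle RNA per cell cannot be told apart.

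Promoters of 4 of the genes are shown because their transcripts moved differently over the arrays: Acta1, whose transcript had the widest range, Myh3 and Myog, which ranked first and second in replicate 1 at 50 mg/kg, and Myh4, whose probe set stayed at the bottom of the scale. They are the 250 bases before the RefSeq start of each gene in build GRCr8, printed 5′ to 3′ on the strand of the gene. Capitals mark exact matches to E-boxes (CANNTG), MEF2 elements (YTAWWWWTAR) and CArG boxes (CCWWWWWWGG). In these patterns N is any base, Y is C or T, W is A or T and R is A or G.
Acta1, chr19:68784195-68784444, minus strand: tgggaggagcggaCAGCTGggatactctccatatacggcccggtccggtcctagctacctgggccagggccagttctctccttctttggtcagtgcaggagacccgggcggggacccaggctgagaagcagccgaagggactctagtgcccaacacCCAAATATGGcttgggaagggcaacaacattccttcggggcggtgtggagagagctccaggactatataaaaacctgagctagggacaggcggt
Myh3, chr10:52268935-52269184, plus strand: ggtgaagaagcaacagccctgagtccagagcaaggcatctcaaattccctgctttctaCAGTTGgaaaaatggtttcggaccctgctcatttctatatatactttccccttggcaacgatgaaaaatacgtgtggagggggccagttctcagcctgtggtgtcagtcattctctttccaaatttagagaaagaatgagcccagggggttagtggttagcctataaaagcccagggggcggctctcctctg
Myog, chr13:48297226-48297475, plus strand: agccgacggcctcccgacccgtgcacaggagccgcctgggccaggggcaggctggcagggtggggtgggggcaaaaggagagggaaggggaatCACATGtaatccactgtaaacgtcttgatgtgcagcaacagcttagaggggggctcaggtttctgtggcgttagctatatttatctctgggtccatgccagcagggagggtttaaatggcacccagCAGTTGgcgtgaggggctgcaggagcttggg
Myh4, chr10:52421898-52422147, plus strand: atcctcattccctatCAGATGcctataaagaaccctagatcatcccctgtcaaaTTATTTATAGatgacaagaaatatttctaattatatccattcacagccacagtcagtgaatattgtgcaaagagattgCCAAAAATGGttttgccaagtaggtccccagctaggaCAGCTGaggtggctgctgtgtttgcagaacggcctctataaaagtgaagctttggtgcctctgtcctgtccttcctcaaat
The Acta1 window held an E-box at -237 to -232 from the start, a CArG box (the element bound by serum response factor) at -94 to -85 and TATAAA at -29 to -24. The Myh3 window held 1 E-box, at -192 to -187, and TATAAA at -30 to -25. Myog had E-boxes at -157 to -152 and at -31 to -26. Myh4 had E-boxes at -235 to -230 and -81 to -76, a MEF2 element at -196 to -187, a CArG box at -118 to -109, and TATAAA at 3 positions, of which 1, at -193 to -188, overlaps the MEF2 element. Over both strands, an E-box was present in 7 of the 9 genes found in the RefSeq table, against 65.5% of all 33469 promoters of that table. TATAAA was present in 4 of 9 (12.9% of all), a CArG box in 2 of 9 (1.5%) and a MEF2 element in 1 of 9 (2.96%). Near matches were not counted, such as a stretch of the Myog window that misses the MEF2 pattern only by its last base. These matches describe letters in a window and nothing about binding. In the same table Myh3, Myh2, Myh1, Myh4 and Myh8 follow one another on the chromosome, between Sco1 and Myh13.

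Acta1, a thin filament gene, separated the arrays most widely of the 10 genes. Acta1 (probe set 1369928_at), which encodes skeletal alpha-actin, had log2 values of 3.51, 12.23, 2.72, 4.44 and 3.46 in vehicle replicates 1 to 5, 10.42, 3.33, 3.08, 12.52 and 12.01 at 0.1 mg/kg, 2.80, 3.26, 12.57, 4.70 and 6.87 at 15 mg/kg and 9.67, 3.30, 8.62, 10.71 and 6.91 at 50 mg/kg. It was at 8.62 or above on 8 arrays, of which 1 was a vehicle array, 3 were at 0.1 mg/kg, 1 was at 15 mg/kg and 3 were at 50 mg/kg. The other 12 arrays were at 6.91 or below, and every dose group overlapped with vehicle. The cut between these sets did not follow the widest gap between neighbouring arrays, which was 2.17 log2 units, from 4.70 to 6.87. Replicates 5 at 15 and 50 mg/kg, at 6.87 and 6.91, were intermediate rather than at background. On 10 arrays Acta1 was at least 2 log2 units above its lowest value. Of these 1 was a vehicle array, and 3, 2 and 4 were at 0.1, 15 and 50 mg/kg. The lowest and highest array were 9.86 log2 units apart, or 929-fold on the linear scale, and the within-group SD of 3.93 was the largest of all 31042 probe sets. Vehicle replicate 2 was the only vehicle array with a high value.

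Tnnt3 and Tnni2 encode the fast-fibre forms of troponin T, which ties the complex to tropomyosin, and of troponin I, its inhibitory subunit. Tnnt3 (1371247_at) had log2 values of 4.02, 9.60, 3.89, 4.13 and 3.61 in vehicle replicates 1 to 5, 7.47, 4.00, 3.89, 10.20 and 9.15 at 0.1 mg/kg, 3.97, 4.06, 10.13, 4.49 and 5.29 at 15 mg/kg and 6.94, 4.34, 5.98, 7.88 and 4.42 at 50 mg/kg. Tnni2 (1367964_at) had log2 values of 4.62, 9.97, 4.79, 4.80 and 4.67 in vehicle replicates 1 to 5, 7.60, 4.87, 4.88, 9.92 and 9.35 at 0.1 mg/kg, 4.69, 4.71, 10.36, 5.10 and 5.67 at 15 mg/kg and 6.94, 5.04, 6.38, 7.67 and 5.25 at 50 mg/kg. The same 8 arrays were highest for both genes, over ranges of 6.59 and 5.74 log2 units. A further Tnnt3 probe set (1397499_at) did not follow them and stayed between 3.72 and 4.18 on all 20 arrays. Actn3, the alpha-actinin that anchors actin at the Z-disc of fast fibres, was measured by 1367962_at at 4.16, 4.43, 4.09, 4.37 and 3.88 in vehicle replicates 1 to 5, 4.23, 4.04, 4.23, 5.13 and 4.55 at 0.1 mg/kg, 4.37, 4.17, 4.48, 4.34 and 4.28 at 15 mg/kg and 4.33, 4.51, 4.44, 4.42 and 4.37 at 50 mg/kg. Its range was 1.25 log2 units and its highest array was replicate 4 at 0.1 mg/kg.

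Among the myosin genes, Myl11 (1387787_at) encodes the fast regulatory light chain and had log2 values of 4.40, 11.56, 4.53, 4.99 and 4.67 in vehicle replicates 1 to 5, 9.26, 4.52, 4.58, 11.80 and 11.02 at 0.1 mg/kg, 4.49, 4.90, 11.86, 4.47 and 5.75 at 15 mg/kg and 9.58, 4.31, 7.95, 9.59 and 5.79 at 50 mg/kg. Its range was 7.55 log2 units, with the same 8 arrays on top. The perinatal heavy chain gene Myh8 (1371053_at) had log2 values of 3.86, 8.73, 3.93, 3.89 and 3.74 in vehicle replicates 1 to 5, 6.14, 3.92, 3.87, 9.09 and 8.28 at 0.1 mg/kg, 4.04, 3.95, 9.52, 4.17 and 4.72 at 15 mg/kg and 6.18, 3.90, 5.26, 7.07 and 4.40 at 50 mg/kg. The embryonic heavy chain gene Myh3 (1368415_at) had log2 values of 4.15, 7.19, 4.30, 4.59 and 3.99 in vehicle replicates 1 to 5, 5.72, 4.09, 4.04, 8.12 and 7.04 at 0.1 mg/kg, 4.00, 4.28, 8.07, 4.21 and 4.50 at 15 mg/kg and 8.38, 4.33, 4.63, 6.57 and 4.27 at 50 mg/kg. Myh8 was highest in replicate 3 at 15 mg/kg, whereas Myh3 was highest in replicate 1 at 50 mg/kg. The adult gene Myh4 (1370900_at) had values of 2.38 to 2.73 over the 20 arrays, all below the 5th percentile of the table, and gave no usable level. One more probe set, which the annotation assigns jointly to Myh2, Myh1 and Myh8, was at 6.71 in replicate 4 at 0.1 mg/kg, at 5.18 in vehicle replicate 2 and at 4.90 in replicate 3 at 15 mg/kg.

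Ckm encodes muscle creatine kinase, which regenerates ATP during contraction. Ckm (1367626_at) had log2 values of 4.37, 9.91, 4.40, 4.71 and 4.59 in vehicle replicates 1 to 5, 7.66, 4.44, 4.81, 10.31 and 9.18 at 0.1 mg/kg, 4.75, 4.25, 10.32, 4.42 and 4.92 at 15 mg/kg and 6.66, 4.40, 6.44, 7.62 and 5.24 at 50 mg/kg. Myog (1368310_at) had log2 values of 4.13, 5.07, 4.00, 4.09 and 3.95 in vehicle replicates 1 to 5, 4.53, 4.10, 4.13, 5.52 and 5.19 at 0.1 mg/kg, 4.21, 4.23, 5.71, 4.52 and 4.08 at 15 mg/kg and 5.71, 4.20, 4.27, 4.49 and 4.40 at 50 mg/kg. Ckm spanned 6.08 log2 units and split the arrays like Acta1, whereas Myog spanned 1.76 log2 units and was high on fewer arrays. Within-group SDs of these genes were 2.28 and 0.60, against a median of 0.15 and a 99th percentile of 0.68 over all probe sets. An SD of at least 1 was found for 106 probe sets (0.341%), among them those of Acta1, Myl11, Tnnt3, Ckm, Tnni2, Myh8 and Myh3. A range of at least 2 log2 units over the arrays was found for 7 of the 11 probe sets, against 667 of all 31042 (2.15%).

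**Figure D1:**
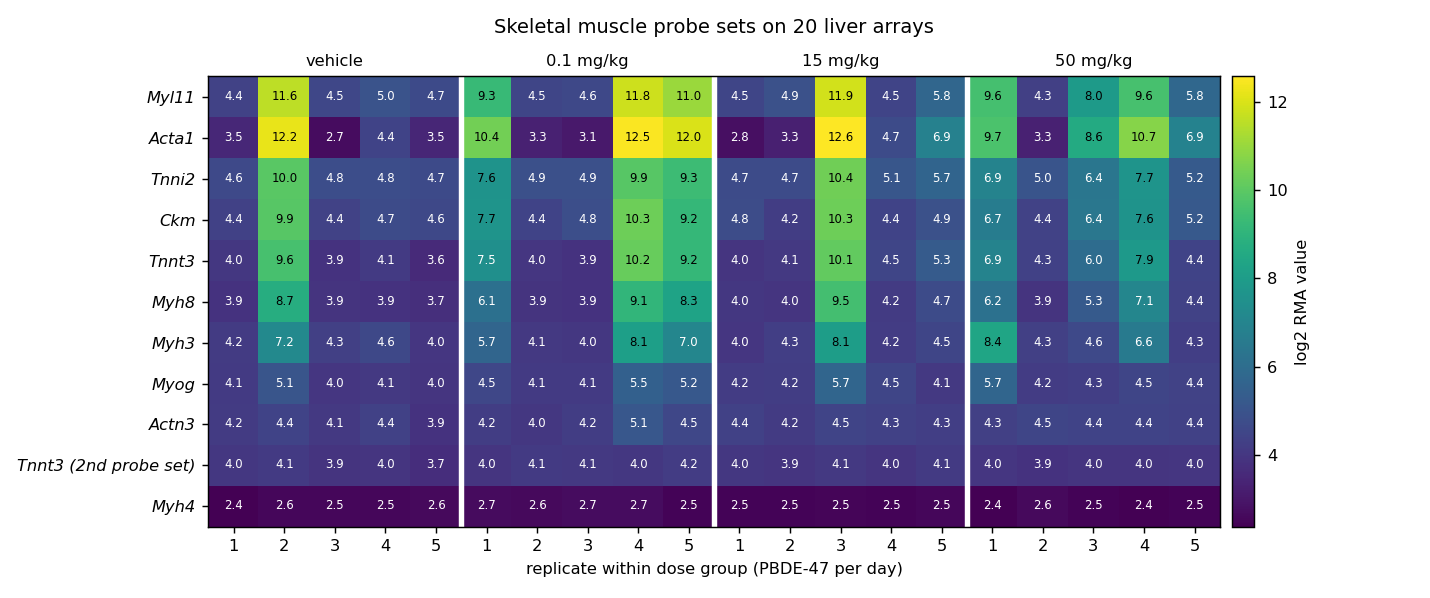
Log2 RMA value (colour and printed number) of the 11 probe sets (rows, by gene) on the 20 arrays (columns, by dose group and replicate number). The bright columns are vehicle replicate 2, replicates 1, 4 and 5 at 0.1 mg/kg, replicate 3 at 15 mg/kg and replicates 1, 3 and 4 at 50 mg/kg, and Myh4 lies between 2.38 and 2.73 throughout.

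Each dose was compared with vehicle to ask which liver transcripts differ after exposure. None of the 11 probe sets passed the adjusted threshold of 0.05 at any dose in limma with Benjamini-Hochberg adjustment over all probe sets, and 0 passed an unadjusted p of 0.05. At 0.1 mg/kg 0 of 11 were called (0.0% of all 31042 probe sets), at 15 mg/kg 0 of 11 (0.116% of all) and at 50 mg/kg 0 of 11 (0.934% of all). The shares at an unadjusted p under 0.05 were 6.87%, 12.1% and 13.0% of all probe sets at 0.1, 15 and 50 mg/kg. Exact two-sided permutation tests adjusted over all probe sets called 0 of all 31042 at each dose, so their 0 for the 11 adds no evidence. The smallest exact p of the 11 was 0.111, 0.254 and 0.0794 at 0.1, 15 and 50 mg/kg, where 5 against 5 arrays can reach 0.00794. All 3 comparisons share the 5 vehicle arrays.

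Acta1 averaged 8.27 ± 4.69 at 0.1 mg/kg and 5.27 ± 3.94 in vehicle (SD, n = 5 each), a log2 change of 3.00 (95% interval -1.66 to 7.66, limma adjusted p = 0.836). At 15 mg/kg it averaged 6.04 ± 3.98, a change of 0.77 against vehicle (-3.89 to 5.43, limma adjusted p = 0.918). At 50 mg/kg it averaged 7.84 ± 2.90, a change of 2.57 against vehicle (-2.09 to 7.24, limma adjusted p = 0.685). All of these intervals include 0 and extend over several log2 units, so neither a large rise nor a large fall of Acta1 was resolved. Myl11 had log2 changes against vehicle of 2.20, 0.26 and 1.41 at 0.1, 15 and 50 mg/kg. Ckm had changes of 1.68, 0.14 and 0.48, and Myh8 of 1.43, 0.45 and 0.53, at the same doses. None of these differences exceeded the spread between replicates.

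The embryonic chain gene and the regulator gene did not pass either. Myh3 averaged 5.80 ± 1.80 at 0.1 mg/kg, 5.01 ± 1.72 at 15 mg/kg and 5.63 ± 1.80 at 50 mg/kg, against 4.84 ± 1.33 in vehicle (SD, n = 5 each). Its changes were 0.96, 0.17 and 0.79 (limma adjusted p = 0.892, 0.960 and 0.794). Myog had changes of 0.45, 0.30 and 0.36 at 0.1, 15 and 50 mg/kg (limma adjusted p = 0.844, 0.761 and 0.722). Actn3, at low values on all arrays, had a change of 0.23 at 50 mg/kg (95% interval -0.08 to 0.54, limma adjusted p = 0.560). The median change over the 11 probe sets was 1.43, 0.26 and 0.49 at 0.1, 15 and 50 mg/kg, against 0.008, 0.013 and 0.009 over all probe sets. At these doses 11, 10 and 9 of the 11 had a positive change, with the same vehicle arrays in each comparison. The 11 are not independent, since most of them were high on the same arrays. They also include Myh4 and the further Tnnt3 probe set, which stayed low on every array.

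Single arrays carried much of these differences. Without vehicle replicate 2, Acta1 had a log2 change against vehicle of 4.74 at 0.1 mg/kg (limma adjusted p = 0.568), 2.51 at 15 mg/kg (0.629) and 4.32 at 50 mg/kg (0.403). In that fit 7 of the 11 probe sets were under an unadjusted limma p of 0.05 at 0.1 mg/kg (8.41% of all probe sets), and 0 were called. The array left out was the only vehicle array with high values, so its removal narrowed the vehicle spread of the genes high on it. The 7 share arrays and are not independent, and they include the further Tnnt3 probe set, at 3.72 to 4.18 on all arrays. Without replicate 3 at 15 mg/kg, Acta1 had a change of -0.86 and Ckm of -1.01 at 15 mg/kg. Without replicate 1 at 50 mg/kg, Myh3 had a change of 0.11 and Myog of 0.09 at 50 mg/kg.

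**Figure D2:**
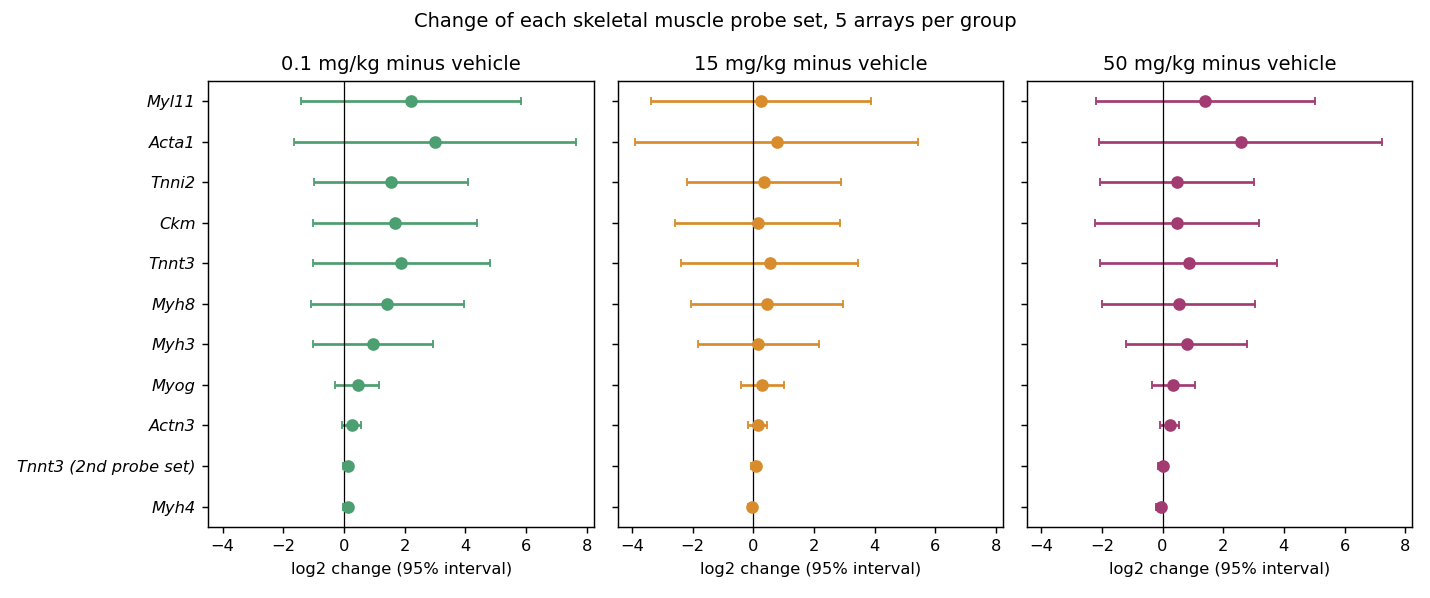
Log2 change of each probe set against vehicle (points) with its 95% interval from the limma fit (bars), in a panel for each dose, 5 arrays per group. All intervals of the 11 probe sets include 0, and that of Acta1 at 0.1 mg/kg runs from -1.66 to 7.66.

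Developmental and adult myosin chains were then set against each other on each array. With Myh4 at background, the difference of Myh3 or Myh8 from Myh4 followed Myh3 and Myh8 alone and gave no measure of isoform balance. Myh3 minus Myh4 was higher by 0.84 at 0.1 mg/kg, 0.20 at 15 mg/kg and 0.86 at 50 mg/kg than in vehicle, and Myh8 minus Myh4 by 1.32, 0.48 and 0.60. None of these 6 differences passed exact permutation tests (two-sided, adjusted p between 0.690 and 0.698).

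The 2 developmental chains could be compared with each other, and their balance differed on 1 array. The probe set difference Myh3 minus Myh8 was 2.19 in replicate 1 at 50 mg/kg. On the other 7 arrays with high Acta1 it lay between -1.54 and -0.42, with -1.54 in vehicle replicate 2, -0.96 and -1.24 in replicates 4 and 5 at 0.1 mg/kg, -1.45 in replicate 3 at 15 mg/kg and -0.50 in replicate 4 at 50 mg/kg. Replicate 1 at 50 mg/kg ranked first of 20 for Myh3 and second for Myog, but 7 for Acta1, Tnnt3, Ckm and Tnni2 and 6 for Myl11 and Myh8. Myh3 minus Acta1 was -1.29 there and -5.04 to -3.99 on the other 7 arrays, and Myog minus Acta1 was -3.97 there and -7.16 to -4.35 on the others. Myh8 minus Acta1, at -3.49, lay within the -4.29 to -3.05 of those arrays. These differences, chosen after the values were seen, describe single arrays and were not tested.

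Replicates 3 and 4 at 50 mg/kg, whose Acta1 values lay 1.05 below and 1.04 above that of replicate 1, gave comparisons for other muscle genes. Replicate 1 exceeded replicate 4 by 1.81 log2 units for Myh3 and by 1.22 for Myog, and also by 1.97 for Myl4, the essential light chain of embryonic muscle and atria, and by 1.26 for Tnnt2, the cardiac troponin T that immature skeletal muscle also makes. It was lower by 1.04 for Acta1, by 0.88 for Myh8, by 0.97 for Ckm and by 1.89 for Mb, which encodes myoglobin. Myl4 and Tnnt2 had the largest differences of the developmental muscle list. Its other genes lay between -0.32 (Igf2) and 0.53 (Mymk), with Chrnd, Musk and H19 also lower in replicate 1. The member, sarcomere, energy, slow-fibre, developmental, regulator and cardiac lists held 39 genes with a within-group SD of at least 1. Of these, 7 were higher in replicate 1 than in replicate 4 and 32 lower, with a median difference of -0.46. The 7 were Myh3, Myf6, Myom1, Myom2 and the slow troponin genes Tnnt1, Tnni1 and Tnnc1, named after their values were seen. Against replicate 3 the count turned round, with 37 higher and 2 lower (Mb and Myl3) and a median difference of 0.79, so its direction depends on the array compared. Myh3 and Myog were higher in replicate 1 than in either array, by 3.75 and 1.44 against replicate 3. Replicate 1 at 50 mg/kg was also the highest array for the smooth muscle genes Myh11 (8.16), Tagln (8.47), Actg2 (7.07), Acta2 (7.29) and Cnn1 (5.05). The other smooth muscle genes of the list, Synpo2, Lmod1 and Smtn, ranked 5, 13 and 18 there. Among skin genes it was highest for Krt5 (6.43), Sfn (5.37) and Krt14 (5.77), whereas Krt1 and Krt10 ranked 3 and 6. Their part in the muscle gene values was not tested.

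**Figure D3:**
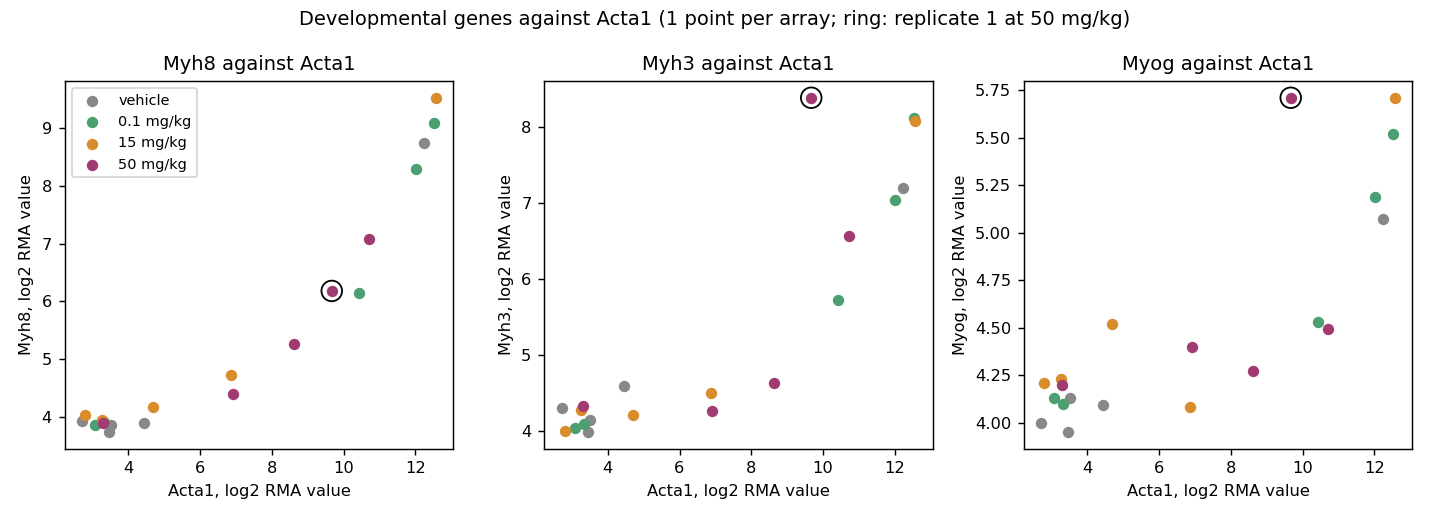
Log2 RMA values of Myh8, Myh3 and Myog (vertical axes) against that of Acta1 (horizontal axis), 1 point per array, coloured by dose group. The ringed array, replicate 1 at 50 mg/kg, lies among the others for Myh8 (6.18) and above arrays of like Acta1 level for Myh3 (8.38) and Myog (5.71).

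Co-variation was measured as Pearson r between genes over the 20 arrays, after removal of group means, for all 45 pairs of the 10 genes. The median r was 0.87 (median Spearman rho 0.79), 21 pairs reached 0.9, and 36 pairs had a permutation p under 0.05 after Benjamini-Hochberg adjustment over the 45. Most of those had an adjusted p of 1.87e-05, from 1e-05, the smallest p that the 100000 resamples can give. The 6 genes Acta1, Myl11, Tnnt3, Ckm, Tnni2 and Myh8 formed the tightest group, with r of 0.96 or more in all 15 pairs. Tnni2 and Myh8 had a rho of 0.98, and Acta1 and Myl11 an r of 0.98 and a rho of 0.94 (permutation adjusted p = 1.87e-05 and 2.25e-05). All genes share the same arrays, and r over 20 arrays is dominated by those with high values. The 10 genes were also chosen with earlier results of these data known. The permutation p-values here and below therefore describe a pattern already seen and are no independent test of it.

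Myh3 and Myog correlated with each other and with Acta1. Their r was 0.96 (rho 0.83, permutation adjusted p = 1.87e-05 and 4.09e-05), against 0.88 for Myh3 with Acta1 (rho 0.87) and 0.81 for Myog with Acta1 (rho 0.77). By Pearson r Myh3 was thus nearer to Myog, and by Spearman rho nearer to Acta1, and no test of these differences was made. Without replicate 1 at 50 mg/kg, r was 0.95 for Myh3 with Myog, 0.92 for Myh3 with Acta1 and 0.98 for Myh3 with Myh8, which was 0.92 over all arrays. Actn3 had r of 0.58 to 0.66 with the other genes except Myh4, and Myh4 had r of -0.20 to 0.07 with every gene (permutation adjusted p of 0.483 or more).

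Leaving out the 2 arrays with the highest mean of the 10 genes, replicate 3 at 15 mg/kg (8.55) and replicate 4 at 0.1 mg/kg (8.54, against a median of 4.52), gave a median r of 0.80. Within the 8 arrays with high Acta1 the median r of deposited values was 0.60, and within the other 12 it was 0.41. Without Myh4 and Actn3, a choice made after the values were seen, these medians were 0.96 and 0.57. The 6 tightest genes kept a median r of 0.98 in the 8 arrays and 0.79 in the 12. Acta1 and Myh8 had an r of 0.86 in the 12 arrays with low Acta1, whereas Myh3 and Myog had 0.03 there and 0.94 in the 8. On those 12 arrays Myh3 was at 3.99 to 4.59 and Myog at 3.95 to 4.52, near background, so little co-variation could appear there. The 12 also hold replicates 5 at 15 and 50 mg/kg, with intermediate Acta1 (6.87 and 6.91). Because Acta1, which split the arrays, is itself 1 of the 10 genes, these values of r are description only.

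**Figure D4:**
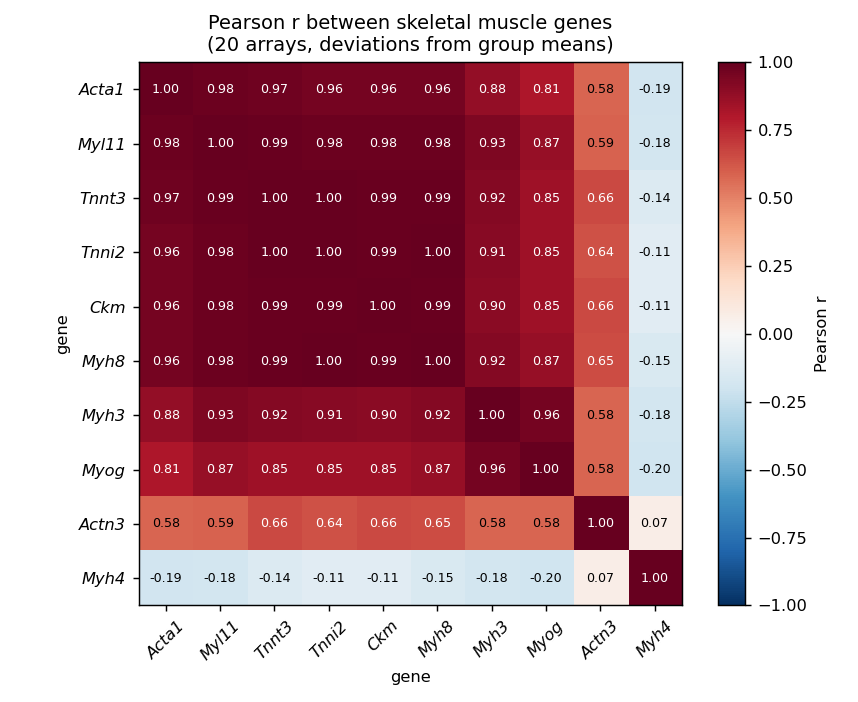
Pearson r between each pair of the 10 genes over 20 arrays after removal of group means (colour and printed number). Acta1, Myl11, Tnnt3, Ckm, Tnni2 and Myh8 form a block of 0.96 or more, Myh3 and Myog reach 0.96 with each other, and the row of Myh4 lies between -0.20 and 0.07.

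The genes most like the 10 were other genes of striated muscle. By Pearson r with the mean deviation of the 10 genes over 20 arrays, the 12 highest genes were Ttn (0.997), which encodes titin, the fast troponin C gene Tnnc2 (0.995), Myoz2 (0.994), the muscle cytochrome oxidase gene Cox8b (0.992), the calsequestrin gene Casq1 (0.992), Myh2 (0.991), Cox6a2 (0.991), Ckmt2 (0.991), Mybpc1 (0.991), Atp1b4 (0.990), the slow myosin gene Myh7 (0.989) and Neb (0.986), which encodes nebulin. An r of at least 0.8 was found for 236 of 31031 other probe sets (0.761%), and their median r was -0.04. The adult and slow fibre genes among these 12, picked for their high r, were high on the same arrays as the perinatal Myh8. Not all probe sets of adult fast genes followed. Myh4 was at background and Actn3 spanned 1.25 log2 units. Pvalb was at 3.31 to 3.91. The Myh1 probe set was at 10.05 to 11.02 (r 0.28). It was as high as 10.39 in vehicle replicate 3, where Acta1 had its lowest value, 2.72, so it gives no usable level of muscle Myh1. The probe set assigned jointly to Myh2, Myh1 and Myh8 did rise, to 6.71 in replicate 4 at 0.1 mg/kg. Myh2, an adult fast heavy chain, ranged from 2.97 to 10.59, and Myh7 from 3.15 to 8.53. Myl1, the fast essential light chain, ranged from 2.84 to 12.03.

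Lists of further muscle genes, chosen with earlier results of these data known, gave the same picture by counts. An r of at least 0.8 was reached by 20 of 24 measured sarcomere genes, 10 of 14 energy metabolism genes and 7 of 9 slow-fibre genes, with median r of 0.95, 0.94 and 0.97. Cox8b ranged from 4.17 to 11.16 and the slow light chain gene Myl2 from 3.42 to 8.96. It was reached by 3 of 12 developmental muscle genes, Myl4, Tnnt2 and the acetylcholine receptor gene Chrna1, at a median r of 0.52. That list includes Igf2 and H19, which fetal liver expresses strongly and which varied by little here (13.14 to 13.69 and 13.99 to 14.22). Of 6 measured myogenic regulators, Myf6 (2.53 to 6.06) and Mef2c (6.55 to 8.50) reached it, and Myod1 had an r of 0.77. In none of these 5 lists was a gene called at any dose.

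Cardiac and smooth muscle markers were counted in the same way. Of 10 cardiac markers 2 reached an r of 0.8, Sln and Myoz2, which skeletal muscle also expresses. The cardiac troponin I gene Tnni3 had an r of 0.77 and ranged from 5.17 to 6.38, with its highest values in replicate 3 at 15 mg/kg (6.38), vehicle replicate 2 (6.35) and replicate 4 at 0.1 mg/kg (6.33). The remaining 7 cardiac genes varied by less than 1 log2 unit. Myh6 was at 3.02 to 3.65, the atrial light chain gene Myl7 at 3.35 to 3.94 and the natriuretic peptide genes Nppa and Nppb at 4.62 to 5.17 and 3.28 to 3.71. Of 8 smooth muscle markers 1 reached it, Synpo2, and the median r of that list was 0.21. Pvalb, a calcium buffer of mature fast fibres, was at 3.31 to 3.91.

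Markers of other tissues moved on partly different arrays. Of 11 exocrine pancreas genes 0 reached an r of 0.8, and the chymotrypsinogen gene Ctrb1 was at 8.52 in replicate 2 at 0.1 mg/kg and at 9.24 and 9.31 in replicates 3 and 5 at 15 mg/kg, against 4.49 or less elsewhere. Of those arrays only replicate 3 at 15 mg/kg had Acta1 above 8 (12.57). Acta1 was intermediate in replicate 5 at 15 mg/kg (6.87) and low in replicate 2 at 0.1 mg/kg (3.33). Ucp1, the uncoupling protein of brown fat, was at 8.22 and 8.01 in replicates 3 and 5 at 15 mg/kg, and the adipose list had a median r of 0.46. Tnmd, a tendon gene, was at 6.55 in replicate 4 at 50 mg/kg and at 5.83 in vehicle replicate 2. It was at 5.67 and 5.73 in replicates 1 and 4 at 0.1 mg/kg, and at 4.51 or less elsewhere. All of these raised arrays had high Acta1. Of 6 tendon genes 1 reached an r of 0.8, at a median of 0.61. Median r was 0.05 for hepatocyte, -0.02 for erythroid, 0.23 for skin, -0.13 for cartilage and bone, 0.14 for peripheral nerve, -0.06 for mesothelium, 0.40 for adrenal cortex and 0.34 for Kupffer cell markers, with 0 genes at an r of 0.8 in each. In these lists of other tissues 0 genes were called at any dose, apart from 4 of 6 Kupffer cell markers, which were lower at 50 mg/kg. The part of these tissues in the muscle gene values was not tested.

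**Figure D5:**
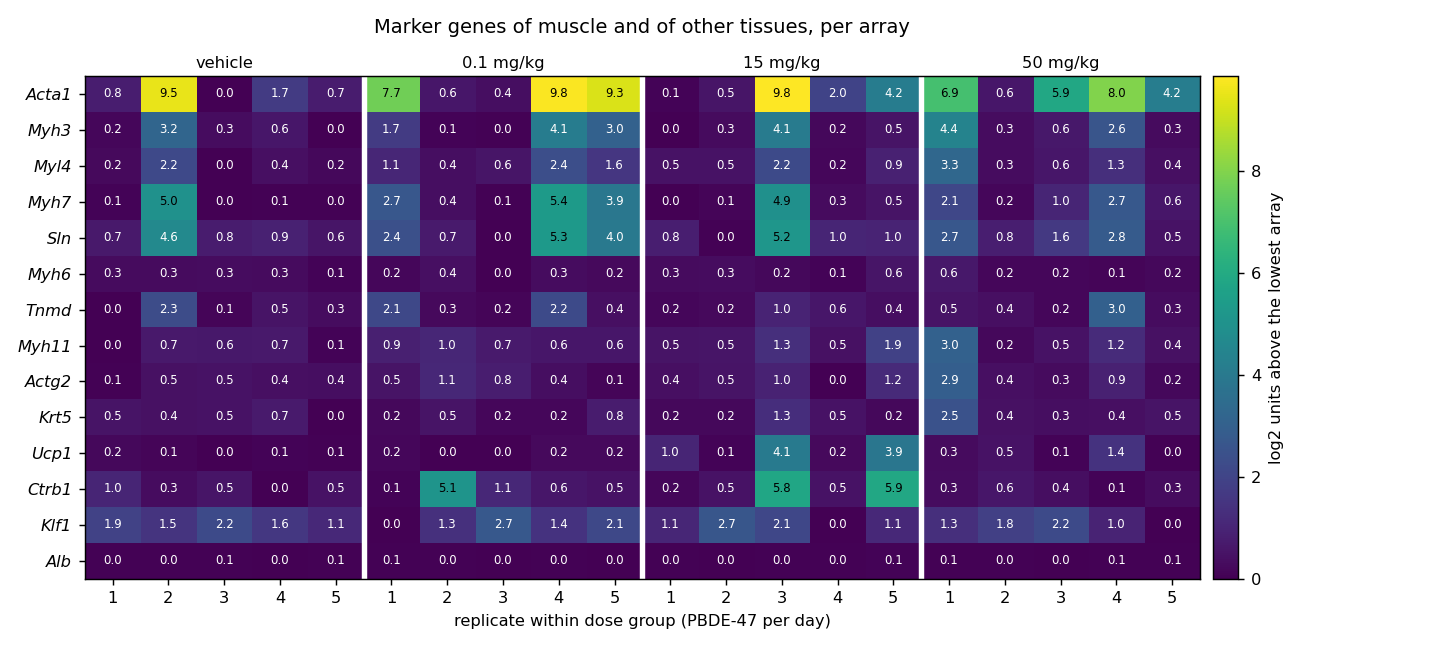
Log2 units above the lowest array (colour and printed number) for marker genes of muscle and of other tissues (rows) on the 20 arrays (columns). Acta1 and Myh7 share their bright columns, Myh6 stays within 3.02 to 3.65, and Ctrb1 is bright in replicate 2 at 0.1 mg/kg and replicates 3 and 5 at 15 mg/kg.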

How the data were processed

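The authors deposited log2 values of 31099 probe sets on 20 Affymetrix rat arrays, hybridised with material amplified from 100 ng of RNA (per the labels' protocols) and summarised with RMA per the submitters' processing notes. The version is not given in the sources used here. Titles gave the groups and replicate numbers. Without 57 control probe sets, 31042 remained, no filter on low values was applied, and gene names came from GEO's platform annotation (20826 probe sets with 1 symbol, 436 with several, 9780 with none named here), of which 20758 were matched by gene ID in RefSeq GRCr8 with 0 symbols changed. No 2 arrays held identical values.

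From these log2 values, 1 linear model with 4 group means was fitted over these probe sets using lmFit and eBayes of limma 3.58.1 under R 4.3.3, with Benjamini-Hochberg adjustment per dose and a threshold of 0.05. The series used R/maanova. Isoform differences were tested by exact two-sided permutation, and correlations used 1 probe set per gene (highest mean) and 100000 permutations of arrays in Python 3.11.15 with scipy 1.17.1. The fitting code was tested on simulated data. Alternatives covered the block, the groups fitted, normalization, filters, variance shrinkage, array weights and each array left out.

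The 10 genes and the 20 gene lists were chosen with earlier results of these data known. Named were all 10 genes, up to 4 genes per list with the highest within-group SD, and the 12 genes with the highest and the 5 with the lowest r. Other named genes were chosen after their values were seen. Same-numbered arrays did not deviate together (median r 0.001 over 30 pairs of arrays, range -0.36 to 0.29), so replicate numbers were not taken to pair samples. Promoters are RefSeq, and proteins were not analysed here.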

Additional observations from a re-analysis of the deposited data

Results flagged for a closer look

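In groups of 5 arrays, the highest or lowest value was set against its nearest neighbour by Dixon's ratio and compared with the 95% critical value. Of 44 sets (11 probe sets in 4 groups) 17 exceeded it, where chance gives about 1 in 20. The sets are not independent, since the genes share arrays. The genes were also chosen with earlier results of these data known. The comparison with chance therefore describes a pattern already seen and is no independent test of it.

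Vehicle replicate 2 was far above the other vehicle arrays for 8 genes. Its log2 values were 12.23 for Acta1, 11.56 for Myl11, 9.97 for Tnni2, 9.91 for Ckm, 9.60 for Tnnt3, 8.73 for Myh8, 7.19 for Myh3 and 5.07 for Myog, against next highest vehicle values of 4.44, 4.99, 4.80, 4.71, 4.13, 3.93, 4.59 and 4.13.

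Replicate 3 at 15 mg/kg stood far above its group for 7 genes, with 11.86 for Myl11, 10.36 for Tnni2, 10.32 for Ckm, 10.13 for Tnnt3, 9.52 for Myh8, 8.07 for Myh3 and 5.71 for Myog. Acta1, at 12.57 on that array, did not exceed the critical value, because replicate 5 was at 6.87.

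At 50 mg/kg the 1 value that stood apart was Myog in replicate 1, at 5.71 against 4.49 on the next array. Myh4 in vehicle replicate 1, at 2.38 against 2.55, also exceeded the critical value, in a probe set at background on every array. No value stood apart at 0.1 mg/kg, where 3 of 5 arrays were high.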

How the results depend on the processing

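The count of the 11 probe sets called was 0 at each dose under every alternative run, including filters at a mean of 6 or 5 that kept 4 and 7 of them, and with each array left out. With the replicate block, which the check of pairing did not bear out, Acta1 had log2 changes of 3.00, 0.77 and 2.57 at 0.1, 15 and 50 mg/kg (limma adjusted p = 0.851, 0.924 and 0.713). The block changed no call of the 11 probe sets, and the median r with it was 0.88. Of 330 changes refitted under other settings 9 turned direction, none past the threshold. With the leading digit of the number in the array description as a block, the changes at 15 mg/kg were -0.22 for Myl11, -0.23 for Ckm and -0.16 for Myh3. With array weights they were -0.29 for Myl11, -0.13 for Acta1, -0.09 for Tnni2, -0.23 for Ckm and -0.09 for Myh3. The further Tnnt3 probe set at 50 mg/kg was at 0.01 with equal array medians. Of 330 fits with 1 array left out 19 turned direction. At 15 mg/kg the ranges were -1.13 to 1.65 for Myl11, -0.86 to 2.51 for Acta1, -0.72 to 1.39 for Tnni2, -1.01 to 1.21 for Ckm, -0.60 to 1.67 for Tnnt3, -0.61 to 1.43 for Myh8, -0.60 to 0.76 for Myh3, -0.56 to 0.78 for Myh3 minus Myh4 and -0.58 to 1.45 for Myh8 minus Myh4, the lowest without replicate 3 at 15 mg/kg and the highest without vehicle replicate 2. The further Tnnt3 probe set ranged from -0.06 to 0.04 at 50 mg/kg. The median r was 0.41 in the 12 arrays with Acta1 under 8 and 0.82 to 0.94 with 1 array left out, and the median within-group SD was 1.83 to 2.20. Over all probe sets, the count called at 50 mg/kg was 290, 89 with only the groups compared and 0 by exact permutation, and at 15 mg/kg it was 36, 11 and 0. At 0.1 mg/kg it was 0 (2134 at an unadjusted p under 0.05), and 0 or 1 under the alternatives. Signals near background limit Myh4, Actn3 and the low arrays of the other genes, and the causes of these shifts were not tested.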

Other observations

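The 5 genes with the lowest Pearson r with the mean deviation of the 10 muscle genes over the 20 arrays were LOC102554403 (-0.759), Pnpla7 (-0.737), H2ac1 (-0.733), Ripor1 (-0.729) and Dcc (-0.726). Their ranges over the arrays were 0.87, 0.65, 0.46, 0.55 and 0.45 log2 units, against 9.86 for Acta1.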
